A study of Mus with 6 samples.

Results

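The long noncoding RNAs Malat1, Neat1, H19, Meg3, Gas5 and Kcnq1ot1, were followed in mouse pancreatic tumors. They were chosen by Ensembl gene ID from a list of well-known noncoding transcripts, and all 6 of 6 IDs were present among the 15646 genes of the count table. The tumors were KPC1199 pancreatic ductal adenocarcinomas, a mouse tumor line implanted orthotopically, that is, into the pancreas. The hosts were genetically obese ob/ob mice, which lack functional leptin, or lean wild-type (WT) mice, with 3 tumor libraries in each group. All tumors came from the same line. The labels name no treatment, age, sex, diet or collection time for either group, and do not say whether each library is a separate mouse, so the p-values measure only the spread between these libraries, which may in part be technical. The single comparison of the design, obese against lean, asks how the tumor transcriptome differs between these hosts. Obesity and the lack of leptin go together in them and cannot be told apart.

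Long noncoding RNAs are transcripts that act, where a function is known, as RNA and not through a protein. Malat1 and Neat1 are neighbouring nuclear RNAs: Malat1 collects in nuclear speckles, where splicing factors are stored, and Neat1 is the scaffold of paraspeckles, nuclear bodies that hold RNA-binding proteins and edited RNAs. H19, Meg3 and Kcnq1ot1 come from imprinted domains, in which a gene is read from the chromosome of 1 parent only. Gas5 is best known as a host of small nucleolar RNAs and takes its name from its accumulation in growth-arrested cells.

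The 6 genes lie on 4 mouse chromosomes (RefSeq annotation of GRCm38.p6). Malat1 (ENSMUSG00000092341.3) spans chromosome 19, positions 5795690 to 5802672, and Neat1 (ENSMUSG00000092274.3) spans 5824708 to 5845480 on the same chromosome, 22.0 kb away. H19 (ENSMUSG00000000031.16) spans chromosome 7, 142575530 to 142578146. Kcnq1ot1 (ENSMUSG00000101609.2) spans chromosome 7, 143213111 to 143296547, 635 kb from H19. Meg3 (ENSMUSG00000021268.17) spans chromosome 12, 109540996 to 109571729, and Gas5 (ENSMUSG00000053332.13) spans chromosome 1, 161034601 to 161038539. All 6 are annotated as noncoding genes. Kcnq1ot1 lies 100% within the span of the protein-coding Kcnq1, to which it is antisense. Over Meg3, 22.2% of the span is shared with Rtl1, a retrotransposon-derived imprinted gene, and over Gas5, 6.70% is shared with the protein-coding Zbtb37. How the counting treated strand is not given in the sources used here, so reads from these overlapping genes cannot be told apart from those of the noncoding RNA. The spans of Malat1, H19, Meg3 and Gas5 also contain small RNAs, such as Mascrna in Malat1, Mir675 in H19 and 8 small nucleolar RNAs in Gas5. Malat1, Neat1 and the mostly unspliced Kcnq1ot1 could be counted whatever their polyadenylation, because the libraries were made from total RNA after removal of ribosomal RNA.

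Libraries held 7122533 to 8521244 counts. Each is called by the number that its title carries, which gives lean 1, 2 and 3 and obese 1, 3 and 4. Levels are given as CPM, a gene's counts scaled by library size, with TMM factors that adjust the sizes for composition. Lean 2 had the lowest total. On the second principal component of log2 CPM obese 3 stood apart at -37.7 from the other libraries at -6.45 to 17.5. In a bulk tumor, fewer cells of a type and less RNA per cell cannot be told apart. The tissue label was not checked against marker genes, since the table gives IDs without symbols.

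Neat1 and H19 fell, Kcnq1ot1 rose, and Malat1, Meg3 and Gas5 did not pass the test in tumors of obese hosts. Neat1 was 2.90-fold lower and H19 2.87-fold lower, whereas Kcnq1ot1 was 2.05-fold higher. A gene is called changed at an adjusted p under 0.05 (edgeR quasi-likelihood test, Benjamini-Hochberg adjustment over the 14348 genes tested). Of the 6, 3 were called, 2 lower and 1 higher, against a background of 20.8% of all genes tested, 10.6% lower and 10.3% higher. The split of the background depended on scaling: 49.3% of its calls were higher with TMM factors (1474 higher, 1517 lower), 54.9% with upper-quartile factors (1654 and 1357) and 60.6% when scaled by total counts alone (1797 and 1170). The same 3 were those whose libraries did not overlap between groups, a pattern shown by 40.3% of the genes tested. With 6 chosen genes these shares describe the list and do not set it apart. The median log2 fold change was -0.27 over the 6 and 0.01 over all genes tested. The background itself moved with the libraries included. With all libraries 2991 genes were called, against 1179 in a refit without lean 2 and 1541 without lean 3. Leaving out obese 1 gave 1461 and leaving out obese 4 gave 1956. Without lean 1 the count was 2624, and without obese 3 it was 3066.

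**Figure D1:**
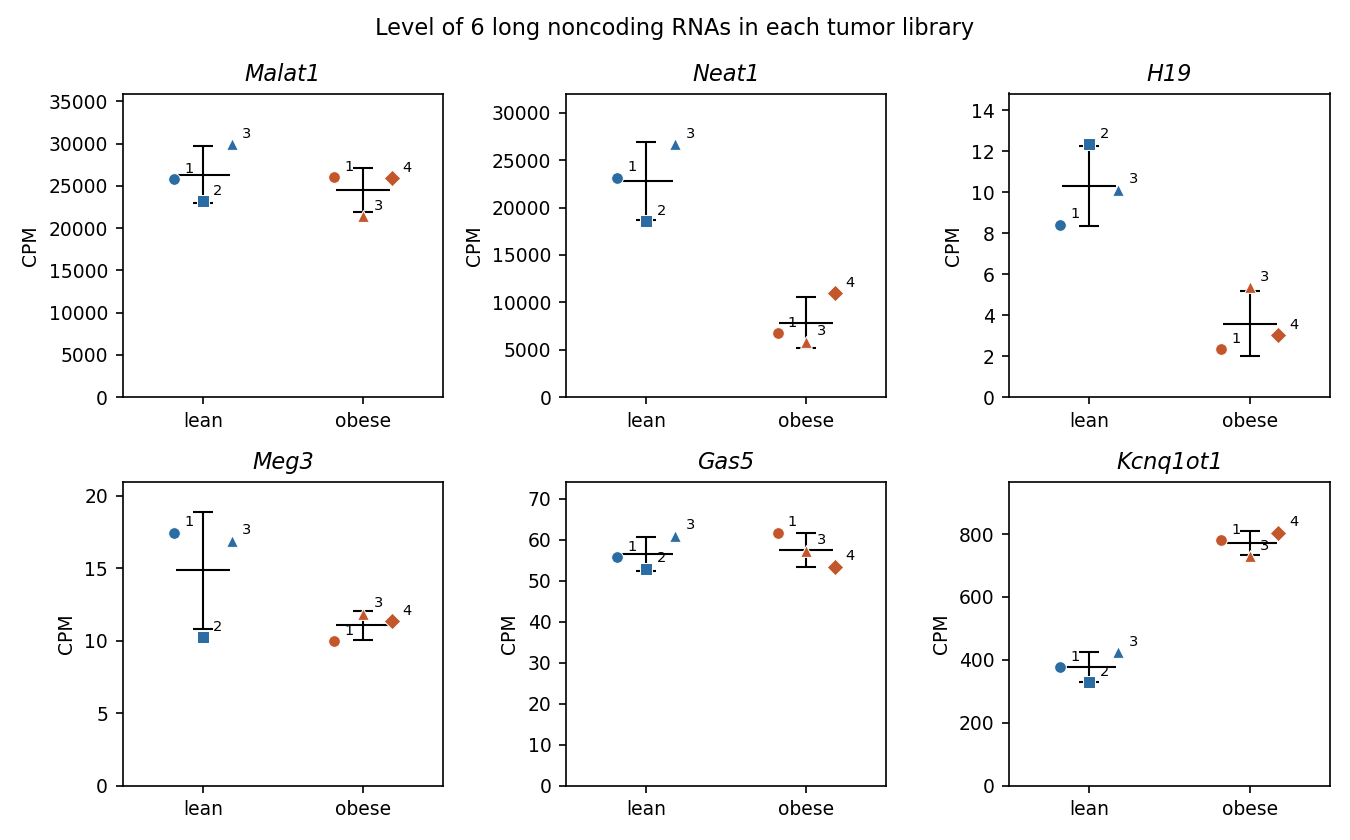
Level of each noncoding RNA in CPM (vertical axes, each from 0) in the 3 lean (blue) and 3 obese (orange) tumor libraries, numbered as in their titles. Horizontal bars are means and whiskers are SD (n = 3 each). Groups are separate for Neat1, H19 and Kcnq1ot1 and overlap for Malat1, Meg3 and Gas5.

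Malat1 was the most abundant gene in each of the 6 libraries. It had 25808, 23222 and 29940 CPM in lean 1, 2 and 3, and 26022, 21459 and 25948 CPM in obese 1, 3 and 4. The groups overlapped, with the lowest level in obese 3 and the highest in lean 3. The mean was 26323 ± 3389 CPM for lean hosts and 24476 ± 2613 CPM for obese hosts (SD, n = 3 each). The log2 fold change was -0.10 with an SE of 0.14 (edgeR adjusted p = 0.627), and its 95% interval, -0.42 to 0.21, runs from 0.750 to 1.15 times the lean level. The value was -0.0034 without lean 3, -0.013 without obese 3 and -0.19 without lean 2, and was not called in any of these. A change of the size seen in Neat1 lies outside this interval, and falls no larger than its lower end do not.

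Neat1 was second to Malat1 in every lean library, at 23164, 18570 and 26695 CPM in lean 1, 2 and 3. In obese 1, 3 and 4 it had 6775, 5862 and 10941 CPM. The highest obese level, in obese 4, was below the lowest lean level, in lean 2, and Neat1 had rank 5 in abundance in obese 1 and 3 and rank 2 in obese 4. Lean tumors averaged 22810 ± 4074 CPM, and obese ones 7859 ± 2707 CPM (SD, n = 3 each). The log2 fold change was -1.54 with an SE of 0.22 (edgeR adjusted p = 0.00277), or 2.90-fold lower with a 95% interval of 2.06 to 4.09. Of all genes tested, 213 had a lower log2 fold change. The counts pool the short and the long Neat1 transcript, which share their 5′ part, so the level of each form is not shown. The fall ranged from -1.85 without obese 4 to -1.36 without obese 3 and kept its call whichever single library was left out.

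The neighbouring pair was compared by its count ratio within a library, which does not depend on scaling. For each Neat1 count there were 1.11, 1.25 and 1.12 Malat1 counts in lean 1, 2 and 3. In obese 1, 3 and 4 there were 3.84, 3.66 and 2.37. The log2 ratio rose from a mean of 0.21 ± 0.09 to 1.69 ± 0.38 (SD, n = 3 each), without overlap (exact permutation test, two-sided, p = 0.1, the smallest that 3 against 3 libraries allows). Together the pair took 4.13% to 5.43% of all counts in lean and 2.87% to 3.68% in obese libraries. Per kb of annotated span, Malat1 had 3770 ± 485 CPM and Neat1 1098 ± 196 CPM in lean tumors (SD, n = 3 each). In obese tumors these levels per kb were 3505 ± 374 and 378 ± 130 CPM. The Neat1 value divides the pooled counts of its short and long transcripts by the whole span, so it is not the level of either form.

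**Figure D2:**
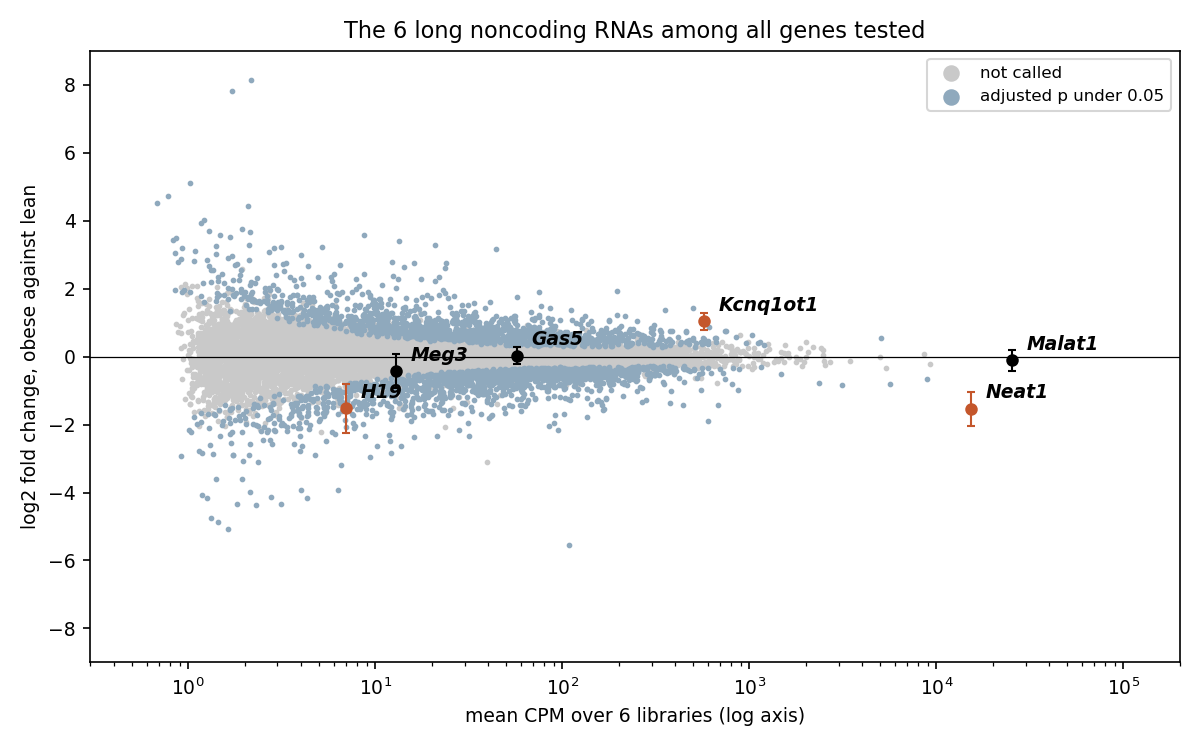
Log2 fold change, obese against lean (vertical axis), against mean CPM over the 6 libraries (horizontal log axis) for the 14348 genes tested. Blue dots are genes with an adjusted p under 0.05, and the 6 noncoding RNAs are drawn with 95% intervals, in orange where called. Neat1 lies at -1.54 at the abundant end beside Malat1 at -0.10.

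Kcnq1ot1, the paternally expressed antisense RNA that is known to silence neighbouring genes of its imprinted domain, was the member that rose. It had 376, 330 and 424 CPM in lean 1, 2 and 3, and 781, 730 and 805 CPM in obese 1, 3 and 4. Each obese library was above each lean library, and the obese levels were close to each other, with a coefficient of variation of 4.91%. The lean mean was 377 ± 47.0 CPM and the obese mean 772 ± 37.9 CPM (SD, n = 3 each). The log2 fold change was 1.03 with an SE of 0.11 (edgeR adjusted p = 0.000948), or 2.05-fold higher with a 95% interval of 1.73 to 2.42. Of all genes tested, 662 had a higher log2 fold change. In abundance Kcnq1ot1 moved from rank 310 to 469 in the lean libraries to rank 102 to 104 in the obese ones. Per kb of its long span its level was 4.52 ± 0.563 CPM for lean and 9.25 ± 0.455 CPM for obese hosts (SD, n = 3 each), far under that of Malat1 on the same scale. The values are those of the gene as counted, and unspliced Kcnq1 RNA may be part of them to an extent that was not tested.

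H19, a maternally expressed RNA that is abundant in the embryo and is the host of the microRNA Mir675, was the scarcest of the 6. It had 71, 87 and 81 counts in lean 1, 2 and 3 (8.43, 12.4 and 10.1 CPM). In obese 1, 3 and 4 it had 20, 44 and 25 counts (2.34, 5.38 and 3.02 CPM). All obese libraries were below all lean ones, with obese 3 nearest to the lean group. Lean tumors averaged 10.3 ± 1.97 CPM, and obese ones 3.58 ± 1.60 CPM (SD, n = 3 each). The log2 fold change was -1.52 with an SE of 0.33 (edgeR adjusted p = 0.0108), or 2.87-fold lower with a 95% interval of 1.74 to 4.73. The lowest count, 20 in obese 1, has an exact Poisson 95% interval of 12.2 to 30.9, which covers counting error only. The call ended without lean 2 (log2 fold change -1.38, edgeR adjusted p = 0.0528), and in a test against a 1.5-fold change it was not made (edgeR adjusted p = 0.0928). With 10574 genes ahead of it in mean CPM, H19 was not an abundant transcript in these tumors.

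Meg3, the maternally expressed RNA of the Dlk1-Dio3 imprinted domain, was also scarce. It had 17.4, 10.2 and 16.9 CPM in lean 1, 2 and 3, and 9.97, 11.9 and 11.3 CPM in obese 1, 3 and 4. Lean 2 lay among the obese libraries, and lean 1 and 3 lay above them. The lean mean was 14.9 ± 4.02 CPM and the obese mean 11.1 ± 0.982 CPM (SD, n = 3 each). The log2 fold change was -0.43 with an SE of 0.23 (edgeR adjusted p = 0.201), with a 95% interval of -0.94 to 0.07, or 0.523 to 1.05 times the lean level. Without lean 2 the log2 fold change was -0.64 (edgeR adjusted p = 0.0711). The total over 3 libraries was 354 counts in lean and 276 in obese tumors. The H19 estimate, -1.52, lies outside the Meg3 interval, but the 95% interval of H19, -2.24 to -0.80, overlaps it. Falls no larger than the lower end of the Meg3 interval lie within it.

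Gas5, the small nucleolar RNA host, had the most even level of the 6 over the libraries. It had 55.8, 53.0 and 61.1 CPM in lean 1, 2 and 3, and 61.8, 57.4 and 53.5 CPM in obese 1, 3 and 4. The groups overlapped over nearly their whole range. The mean was 56.6 ± 4.11 CPM for lean hosts and 57.5 ± 4.17 CPM for obese hosts (SD, n = 3 each). The log2 fold change was 0.02 with an SE of 0.11 (edgeR adjusted p = 0.905). Its 95% interval, -0.23 to 0.28, runs from 0.853 to 1.21 times the lean level. The sign of this small difference turned without lean 2 (-0.02) and without obese 1 (-0.03). Small nucleolar RNAs cut from the Gas5 introns are separate transcripts, and how far their reads enter this value was not tested.

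**Figure D3:**
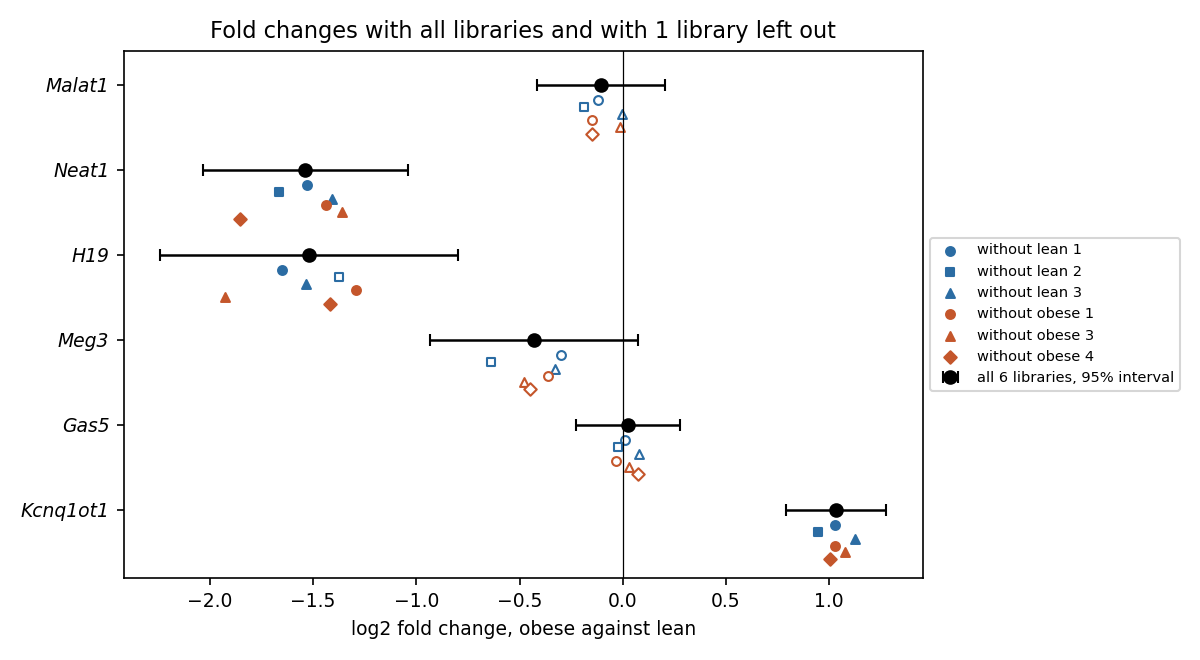
Log2 fold change, obese against lean (horizontal axis), for each noncoding RNA with all 6 libraries (black, 95% interval) and without each library in turn (coloured symbols, filled where the adjusted p was under 0.05). Neat1 and Kcnq1ot1 stay called throughout, at -1.85 to -1.36 and 0.95 to 1.13, and H19 loses its call without lean 2.

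The 3 imprinted RNAs did not move together. Kcnq1ot1 rose while H19, on the same chromosome, fell, so that the number of Kcnq1ot1 counts for each H19 count went from 44.6, 26.7 and 41.9 in lean 1, 2 and 3 to 333, 136 and 267 in obese 1, 3 and 4. The log2 ratio of H19 to Kcnq1ot1 had a mean of -5.20 ± 0.40 in lean and -7.84 ± 0.67 in obese libraries (SD, n = 3 each), without overlap (p = 0.1 in the exact permutation test). H19 also fell relative to Meg3, the other maternally expressed member. For each H19 count there were 2.07, 0.828 and 1.67 Meg3 counts in lean 1, 2 and 3, and 4.25, 2.20 and 3.76 in obese 1, 3 and 4. Those groups did not overlap, by the narrow margin between lean 1 and obese 3 (exact permutation test, p = 0.1).

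Kcnq1ot1 rose against Malat1 as well, and this pair had the tightest ratio in the lean group. There were 68.6, 70.3 and 70.6 Malat1 counts for each Kcnq1ot1 count in lean 1, 2 and 3, and 33.3, 29.4 and 32.3 in obese 1, 3 and 4. The mean log2 ratio was 6.13 ± 0.02 in lean and 4.98 ± 0.09 in obese libraries (SD, n = 3 each), without overlap (exact permutation test, p = 0.1). The ratio of Neat1 to Kcnq1ot1 changed by -2.62 on the log2 scale, from 61.6, 56.2 and 62.9 Neat1 counts per Kcnq1ot1 count in lean 1, 2 and 3 to 8.68, 8.03 and 13.6 in obese 1, 3 and 4. Both RNAs passed the test on their own, in opposite directions.

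Of the 15 ratios between 2 members, 11 did not overlap between the groups, each at an exact permutation p = 0.1 and a Benjamini-Hochberg adjusted p = 0.136 over the 15 pairs. Each of the 11 joins a called member to one not called, or Kcnq1ot1 to Neat1 or H19, so the count restates the calls. Among single genes tested, 40.3% did not overlap, and the share among ratios of other genes was not computed. Ratios that share a member are not independent, and no pair could pass a threshold of 0.05 with this number of libraries. The 4 that overlapped were Malat1 to Meg3, Malat1 to Gas5, Meg3 to Gas5, and Neat1 to H19. The first 3 pair members that did not pass the test alone. The fourth pairs the members that fell: the log2 ratio of Neat1 to H19 was 11.1 ± 0.49 in lean and 11.1 ± 0.92 in obese libraries (SD, n = 3 each; exact permutation test, p = 1). Although their mean falls were alike, obese 3 had the lowest Neat1 and the highest H19 of the obese group.

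**Figure D4:**
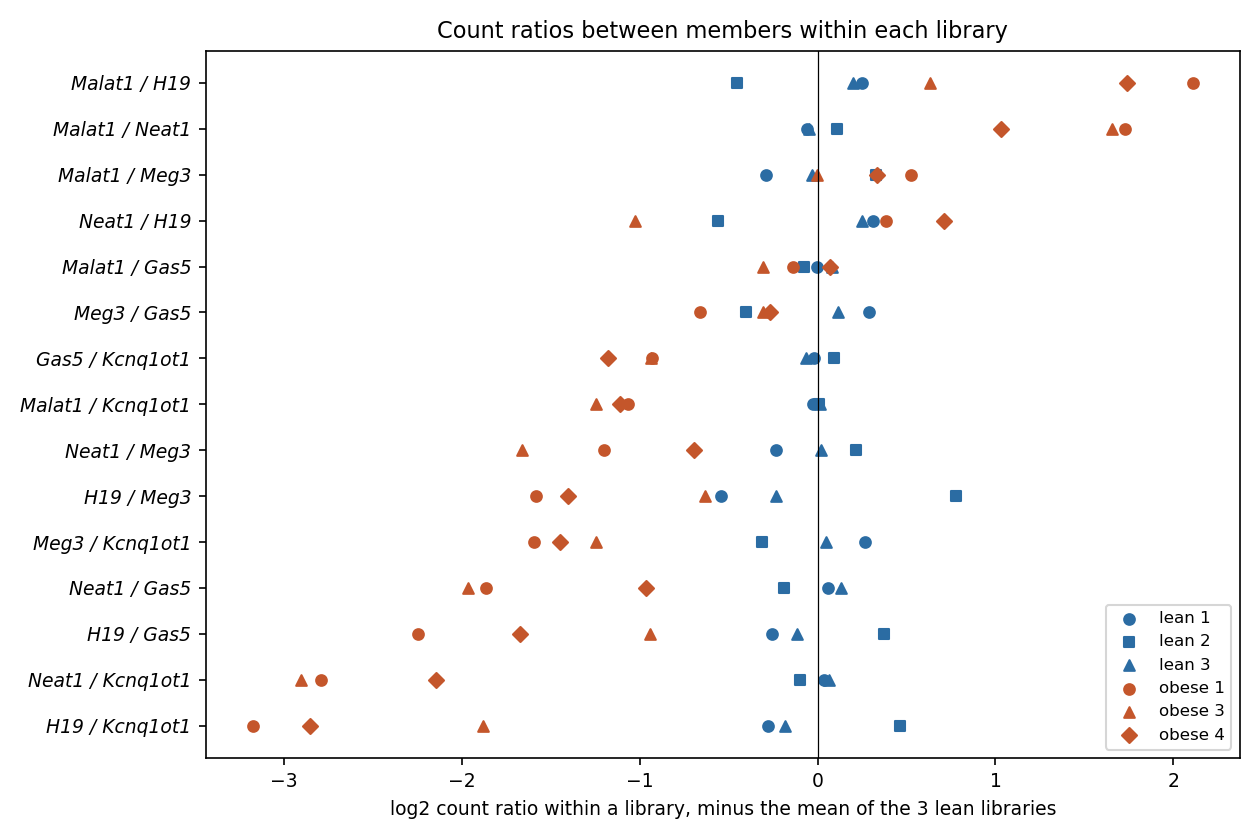
Log2 count ratio between 2 noncoding RNAs within each library, as the difference from the mean of the 3 lean libraries (horizontal axis), for the 15 pairs (rows), with lean libraries in blue and obese ones in orange. The lean libraries are centred at 0 in every row by construction. The 11 pairs without overlap include every ratio to Kcnq1ot1, whereas for Neat1 to H19 the obese mean also lies near 0, at 0.02.

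Within the groups, libraries took the same order for several members. Among lean libraries Malat1, Neat1, Kcnq1ot1 and Gas5 were each highest in lean 3, intermediate in lean 1 and lowest in lean 2, whereas H19 was highest in lean 2. Among obese libraries Malat1, Neat1 and Kcnq1ot1 were lowest in obese 3, and H19 and Meg3 were highest there. Lean 2 was the library with the lowest total count and obese 3 the one apart on the second component. Their part in these orders was not tested. Neat1 varied more than the other abundant members within the obese group, with a coefficient of variation of 34.4%, against 17.9% in lean. For Kcnq1ot1 it was 12.5% in lean, and for Gas5 7.27% in lean and 7.24% in obese tumors.

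The 6 RNAs together made up 4.89%, 4.17% and 5.47% of all counts in lean 1, 2 and 3, and 3.41%, 2.95% and 3.77% in obese 1, 3 and 4. The share was lower in each obese library (mean 4.84% ± 0.652 in lean and 3.38% ± 0.410 in obese, SD, n = 3 each, with p = 0.1 in the exact permutation test). Without Neat1 the groups overlapped, at 2.34% to 2.92% in lean and 2.34% to 2.72% in obese libraries (exact permutation test, p = 0.9). Within the 6, Malat1 held 52.2% to 55.0% of the counts in lean and 68.7% to 77.3% in obese libraries.

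The gene most alike in pattern to each member was taken as that with the highest Pearson correlation of log2 CPM over the 6 libraries, among the 14311 other genes whose mean reached 1 CPM. These correlations span both groups, so for a member that changed they mostly restate the group difference, and 6 libraries allow high values for many genes. For Neat1 it was ENSMUSG00000049807.16 (r = 0.995, n = 6 libraries), and 182 genes exceeded 0.95. For Kcnq1ot1 it was ENSMUSG00000026317.7 (r = 0.998, n = 6 libraries), and 383 genes exceeded 0.95. That gene averaged 16.5 ± 2.10 CPM for lean and 30.5 ± 1.09 CPM for obese hosts (SD, n = 3 each). For Malat1 and Gas5, which did not pass the test, the most alike genes were ENSMUSG00000031601.16 (r = 0.989) and ENSMUSG00000116185.1 (r = 0.987), with 11 genes above 0.95 for each.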

How the data were processed

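Total RNA from 6 tumors (3 per group) was extracted with a phenol reagent and a kit and depleted of ribosomal RNA, per the labels' protocols. The authors deposited raw counts per gene. The tools were CASAVA, STAR and Subread and the build GRCm38, per the submitters' processing notes. Not given in the sources used here were their versions, settings, annotation and use of strand. The lowest sum of a listed gene over the libraries is 11, so scarcer genes are not in the table. Titles starting with OB were taken as obese and those starting with ND as lean.

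The expression filter of edgeR (minimum count 10, minimum total 15) left 14348 of 15646, including all 6 members. Counts were scaled by TMM and tested with edgeR 4.0.16 (R 4.3.3) by the two-sided quasi-likelihood F test, with the group as its only term. The SE is the log2 fold change divided by the square root of F, as a size, and intervals use the test's degrees of freedom. Log2 CPM used a prior count of 2. Ratios and shares were compared by exact permutation tests, two-sided. The edgeR script was tested on simulated data. Within a group, library pairs differed per gene by 7.28 to 14.2 times what sampling alone gives, so none looked like 1 library deposited more than once.

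The symbols of the 6 IDs came with the list. The RefSeq table carried an Ensembl ID in 0 of 49997 rows, so 0 of the other IDs were named, and 8 lists of related genes and the cell type markers, planned by symbol, were not run. The named genes are the 6 members whatever their values and, for up to 2 members per direction in list order, the most alike gene. Direction here is the sign of the log2 fold change, called or not. Malat1 and Gas5 were therefore included, and the genes most alike to H19 and Meg3 are not named. The members and lists were chosen with earlier results of these data known.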

Additional observations from a re-analysis of the deposited data

How the results depend on the processing

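Neat1 and Kcnq1ot1 kept direction and call in all 18 alternatives (adjusted p up to 0.0261 and 0.0232), and Malat1, Meg3 and Gas5 were called in 0 of 18 each. Scaling, filter and tool (DESeq2 1.42.0 and limma-voom 3.58.1 included) left every call of the 6 in place, with Neat1 at -1.57 to -1.48 and Kcnq1ot1 at 1.03 to 1.09. The 1.5-fold test left 213 genes, with H19 at -1.52 (adjusted p = 0.0928). Leaving out 1 library gave 1179 to 3066 called genes and log2 fold changes of -1.93 to -1.29 for H19, whose call ended without lean 2 at -1.38, and of -0.031 to 0.080 for Gas5, reversed at -0.025 without lean 2 and -0.031 without obese 1; the cause was not tested. The difference in log2 ratio of Neat1 to H19, 0.02, was -0.012 with a pseudocount of 1 count, and -0.32 to 0.55 with 1 library left out (reversed at -0.26 without lean 2, -0.16 without obese 1 and -0.32 without obese 4); the other 101 of 105 ratio values kept direction. Replicate numbers shared by the groups are 1 and 3. The like-numbered libraries deviated from their group means with correlations of 0.090 and 0.074. Those of the unlike-numbered pairs were lower, at -0.131 to 0.066. All of these are weak, and whether the numbers mark a pairing was not tested. With the replicate block 2087 genes were called, and Neat1 (-1.98), H19 (-1.33) and Kcnq1ot1 (0.92) kept their calls. Lean 2 and obese 4 have no like-numbered library, so the group difference in that fit rests on numbers 1 and 3 alone. The block terms also leave few degrees of freedom to estimate error, so the kept calls are weak support. A 0 in a library would allow up to 0.352 to 0.426 CPM (3 counts), under every level reported here.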
